A study of Mus musculus with 12 samples.

Results

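RNA of undifferentiated KH2 cells, a mouse embryonic stem (ES) cell line, was measured on Affymetrix mouse expression arrays before retinoic acid (RA) was given; RA is made from vitamin A and drives these cells to differentiate. The untreated cells are the 3 arrays, here called A, B and C, whose labels give no RA exposure. They are 3 of the 12 arrays and 1 of the 4 groups of the series, whose other groups had 2, 4 or 6 h of RA at 0.3 µM, in another medium, and are not compared here. The labels describe the cells as KH2, give no agent for the untreated group, and put the whole series on feeder cells. KH2 cells are known to carry a reverse tetracycline transactivator and a Col1a1 locus prepared for inserting transgenes, so the group is a single engineered line and not a survey of ES cells. The cells were taken off the feeder layer with trypsin and replated on gelatin for 30 min, a step that lets fibroblasts settle. The protocols disagree on whether the cells that had attached or those still in the medium were then collected. The labels do not call the replicates separate cultures, so the spread given below may be technical.

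Mouse ES cells hold the state of the preimplantation epiblast. The transcription factors Oct4 (the product of Pou5f1), Sox2 and Nanog sustain one another's genes, leukaemia inhibitory factor (LIF) acts through gp130 and Stat3 to keep the naive factors Klf4, Tfcp2l1 and Esrrb on, and autocrine Fgf4 acting through the ERK kinases prepares the cells to leave this state. Lineage regulators, among them the Hox genes, are held silent by the Polycomb complexes while the cells stay undifferentiated.

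Values are deposited log2 signals, and each of 18194 genes was followed with its brightest probe set. To say which genes were above the signal of silent genes, a silent-gene level was set at 7.15, the 95th percentile of the mean log2 signals of 97 genes that serve differentiated tissues such as liver, pancreas, muscle, kidney and retina. Of the 18194 genes, 9419 (51.8%) had a mean above that level, and this share is the background for each count below. By construction 5 of the 97 silent genes lay above it, the highest of them Actn3, an actinin of skeletal muscle, at 9.29, 8.97 and 9.45 in arrays A, B and C. Probe sets differ in how brightly they hybridise and signals are not per transcript length, so a gene's percentile by signal is no rank of RNA amounts. A gene below the level is called not above it, since a weak probe set and an absent RNA give the same reading. There is no second group in these values, so no test was made and no p-value is given.

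The 4 markers of undifferentiated ES cells were above the level on every array and lay in the top decile of genes by signal, which holds 10% of all genes. Pou5f1 read 13.22, 13.16 and 13.26 log2 units in arrays A, B and C. Sox2 read 13.09, 13.19 and 13.18, and Nanog 12.69, 12.72 and 12.77. Zfp42, the Rex1 gene that marks the naive state, read 12.56, 12.73 and 12.23. Their means were 13.22 ± 0.05, 13.15 ± 0.05, 12.72 ± 0.04 and 12.51 ± 0.25 (SD, n = 3). The first 3 markers varied by at most 0.10 between arrays, and Zfp42 was lowest in array C, 0.50 below array B. The labelled cell type thus had its defining markers on each of the 3 arrays.

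**Figure D1:**
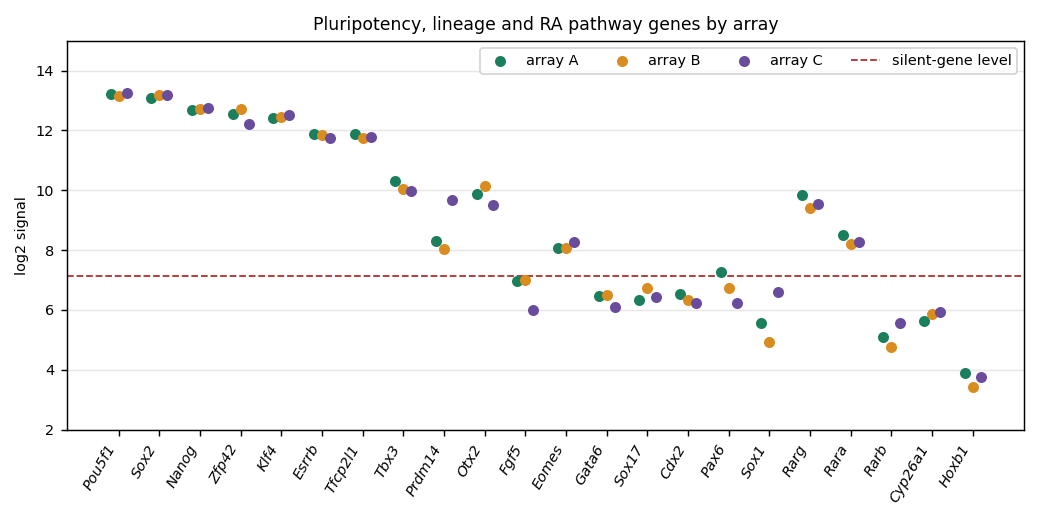
Log2 signal (vertical axis) of 22 pluripotency, lineage and RA pathway genes (horizontal axis) in the untreated arrays A, B and C, 1 point per array, with the silent-gene level of 7.15 dashed. Pou5f1, Sox2 and Nanog lie near 13 with the 3 points together, Prdm14 stands higher in array C, and Cyp26a1 and Hoxb1 lie below the dashed line on every array.

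Array C stood apart from A and B. Over genes, the differences of C from A had an SD of 0.305 on the log2 scale and those of C from B 0.312, against 0.178 between B and A. Differences of at least 2-fold in either direction were found for 181 genes between C and A (0.995%), for 209 between C and B (1.15%) and for 4 between B and A (0.022%). Medians over all probe sets of the deposited signals were 6.08 in C, 6.07 in A and 6.05 in B. The method of normalization is not given and may have made these medians alike. They therefore cannot tell whether an array was brighter before processing. The upper end of the ranking was shared: 18 of the 20 genes with the highest signal on each array were common to all 3 arrays, as were 95 of the highest 100 and 912 of the highest 1000. Arrays A and B alone shared 964 of the highest 1000, C and A 932, and C and B 929.

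The 20 brightest genes were those of protein synthesis and of abundant cytoplasmic proteins. Eef1a1, the elongation factor that carries aminoacyl-tRNA to the ribosome, had the highest mean, with 14.89, 14.89 and 14.92 in arrays A, B and C. It was followed by the ribosomal protein genes Rpl41, Rpl37a and Rplp2 at means of 14.88, 14.87 and 14.86 and by Tpt1, the translationally controlled tumour protein, at 14.80. Rps29, Rps3a1, Rpl38, Rps2, Rps28, Rps3, Rps7, Rps10, Rpl22, Rpsa, Rps4x and Rpl19 also belonged to the 20, with Gapdh of glycolysis at 14.67, Tmsb10, which binds actin monomers, at 14.67, and the poly(A)-binding protein gene Pabpc1 at 14.64. The means of these 20 lay between 14.51 and 14.90, and their ranges over the arrays were at most 0.082. Most neighbours in this order lie closer together than those ranges, so the order within the 20 is not resolved. Among the 100 brightest genes, 34 had ribosomal protein symbols, 8 were initiation or elongation factors and 8 belonged to the respiratory chain and ATP synthase.

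Gene lists for translation and energy lay almost wholly above the level. Of 40 measured ribosomal protein genes 39 did, with a median of 14.42. The exception was Rps16, whose probe set read 3.44, 3.80 and 3.22, in contrast to the other members and as 1 probe set only. Each of 23 translation factor genes was in the top decile. The respiratory chain had 43 of 43 genes above the level and 40 in the top decile, from Cox6a1 of cytochrome oxidase at 14.29, 14.36 and 14.35 down to Cox7c at 8.91, 8.79 and 8.84. All 40 splicing factor genes, all 24 genes of the nucleolus and 33 of 34 proteasome genes were above the level. The proteasome exception was Psmb8, an interferon-inducible subunit, at 6.61, 6.74 and 6.75. Its neighbour in function Psmb9 was just above at 7.38, 7.34 and 7.52, while the constitutive subunit Psma3 read 13.42, 13.44 and 13.43.

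Promoter sequence followed the ranking. RefSeq promoters of 300 bases, 250 before and 50 after the start in build GRCm38.p6, were matched by symbol, and 11792 measured genes had exactly 1. In 5 equal groups of these genes, in rising order of signal, the median number of CG dinucleotides per promoter was 5, 8, 19, 22 and 24. Genes above the silent-gene level had a median of 23 CG and genes not above it 7. The letters TATAAA, sought on both strands, were in 18.5%, 12.1%, 8.02%, 5.47% and 6.78% of promoters in the same order. The share was 10.2% over the 11792 genes together. It was 13.6% of all 32851 promoters in the table, a wider set that also holds promoters of other genes. Signal also follows probe design and base composition, so this is a description of the ranked genes. The lists differed likewise: chromatin remodelling genes had a median of 32 CG (19 promoters), Hox genes 15 (17 promoters), feeder fibroblast markers 8 (25 promoters) and silent tissue genes 3 (79 promoters).

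**Figure D2:**
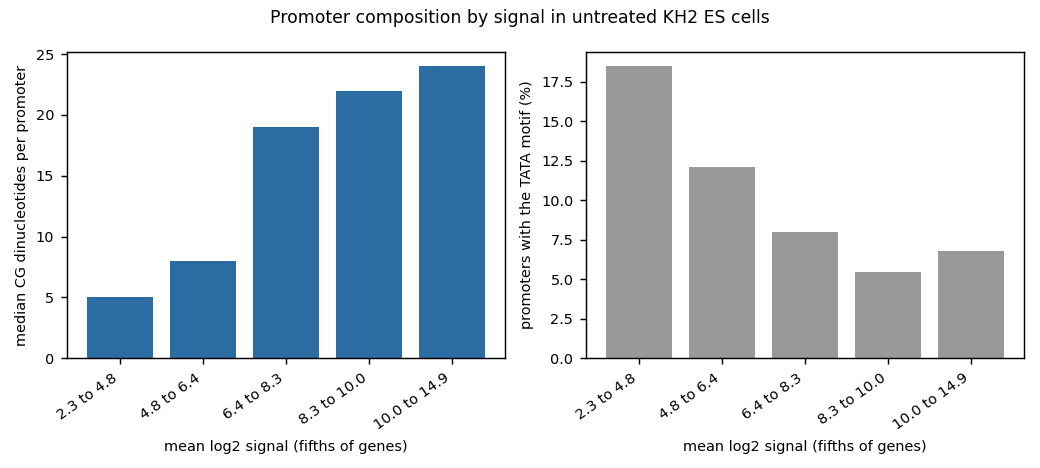
Left, the median number of CG dinucleotides per promoter, and right, the percentage of promoters holding TATAAA, for 11792 genes in 5 equal groups by mean log2 signal (horizontal axes, with the signal range of each group). The CG bars go from 5 to 24 and the TATAAA bars from 18.5% to 6.78% across the 5 groups.

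Sequences of 4 genes from the upper and lower ends of the ranking are shown as examples, with every CG in capitals. Single promoters need not follow the medians of the groups. Eef1a1, the brightest gene, has 22 CG at chr9:78481675-78481974 on the minus strand. Pou5f1, a marker that was steady over the arrays as Sox2 and Nanog were, has 2 promoters in the table. The upstream entry at chr17:35505782-35506081 on the plus strand holds 11 CG, while the other entry holds 6. Hoxb1, an anterior Hox gene known to respond early to RA, read 3.91, 3.41 and 3.76 in arrays A, B and C, and holds 10 at chr11:96365508-96365807 on the plus strand. Gcg, the glucagon gene and the silent gene with the lowest mean at 2.72, holds 7 at chr2:62483604-62483903 on the minus strand.
Eef1a1: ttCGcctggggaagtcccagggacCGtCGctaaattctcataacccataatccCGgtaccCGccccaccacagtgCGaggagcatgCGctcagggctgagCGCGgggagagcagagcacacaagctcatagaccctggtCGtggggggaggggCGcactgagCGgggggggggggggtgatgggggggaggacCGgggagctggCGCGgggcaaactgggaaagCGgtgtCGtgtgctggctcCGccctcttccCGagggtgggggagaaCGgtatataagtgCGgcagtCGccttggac
Pou5f1: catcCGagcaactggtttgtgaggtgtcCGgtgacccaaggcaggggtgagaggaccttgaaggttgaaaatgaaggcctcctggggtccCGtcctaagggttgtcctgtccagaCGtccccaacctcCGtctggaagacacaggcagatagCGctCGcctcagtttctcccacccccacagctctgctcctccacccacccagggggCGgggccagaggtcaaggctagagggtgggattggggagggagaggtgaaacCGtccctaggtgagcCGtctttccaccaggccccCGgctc
Hoxb1: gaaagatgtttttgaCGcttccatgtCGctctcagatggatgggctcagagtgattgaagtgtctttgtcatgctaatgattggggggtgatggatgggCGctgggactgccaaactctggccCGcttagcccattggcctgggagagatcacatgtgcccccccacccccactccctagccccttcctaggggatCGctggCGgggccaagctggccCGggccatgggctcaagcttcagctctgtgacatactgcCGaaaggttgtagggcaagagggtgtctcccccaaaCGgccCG
Gcg: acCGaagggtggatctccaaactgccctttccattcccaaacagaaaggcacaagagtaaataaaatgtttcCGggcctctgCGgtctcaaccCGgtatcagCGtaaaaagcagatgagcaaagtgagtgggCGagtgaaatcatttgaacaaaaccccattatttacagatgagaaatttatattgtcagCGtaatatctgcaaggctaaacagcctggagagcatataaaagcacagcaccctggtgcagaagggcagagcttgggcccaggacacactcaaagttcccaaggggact

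The naive pluripotency list was above the level in 30 of 31 measured genes, on every array, and 23 of the 31 lay in the top decile. Its median was 11.83. Dppa5a, an RNA-binding protein of ES cells and early embryos, had the highest signal, with 14.39, 14.39 and 14.47 in arrays A, B and C. The Krüppel-like factor genes Klf5 (13.42, 13.36 and 12.83), Klf2 (13.13, 13.26 and 12.93) and Klf4 (12.42, 12.46 and 12.51) were all in the top decile. Esrrb, an orphan nuclear receptor of the naive network, read 11.89, 11.84 and 11.76. Tfcp2l1, which acts downstream of LIF and Stat3, read 11.88, 11.74 and 11.77. Tbx3, a T-box factor of the same network, read 10.29, 10.03 and 9.97, and Dppa3, the Stella gene of oocytes and early embryos, 11.27, 11.34 and 11.10. The corepressor Trim28 (13.73, 13.70 and 13.63), the co-receptor gene Tdgf1 (13.04, 13.07 and 13.43) and Sall4 (13.16, 13.14 and 12.83) completed the upper part of the list. The member not above the level was Rex2, a zinc finger gene, at 4.96, 5.05 and 5.05.

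Naive genes were not equally steady. Klf4, Esrrb, Tfcp2l1 and Fgf4 had ranges of 0.10, 0.13, 0.14 and 0.09 log2 units. The widest range was that of Prdm14, a repressor that shields naive cells from FGF signalling, with 9.69 in array C against 8.32 and 8.02 in A and B. The orphan receptor gene Nr5a2 read 10.24 in C, against 11.09 and 11.17, and Nr0b1, the Dax1 gene, 11.26 in C, against 12.08 and 12.13. Both of these and Zfp42 were lowest in C while Prdm14 and Tdgf1 were highest there. In all, array C was the lowest of the 3 for 20 of the 31 genes and the highest for 9, where it was the lowest for 30.5% of all genes and the highest for 47.5%. The median difference of C from the mean of A and B was -0.19, against 0.05 over all genes. No member was below the level on any array apart from Rex2, so the count of 30 is the same from A and B alone.

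Genes of the primed epiblast, the state that follows implantation, were also largely above the level: 13 of 15, with a lower median of 8.81 and 1 gene in the top decile. That gene was Dnmt3b, a de novo DNA methyltransferase, at 11.92, 11.94 and 11.80. Otx2, a homeobox factor that opens the primed programme, read 9.86, 10.14 and 9.52, and Zic2 10.24, 10.09 and 9.27. Fgf5, the usual marker of primed cells, was not above the level, with 6.95, 7.01 and 5.99, and Cer1, a secreted Nodal inhibitor, read 4.43, 4.54 and 4.39.

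**Figure D3:**
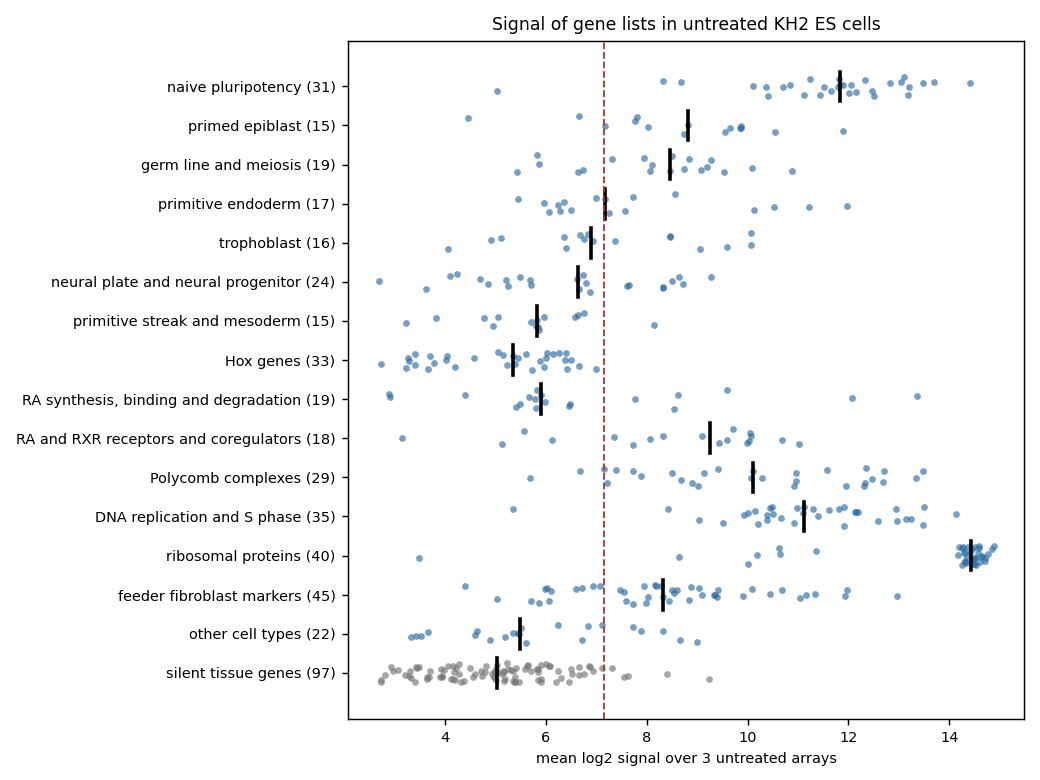
Mean log2 signal over the 3 untreated arrays (horizontal axis) of the genes in 16 lists (rows, number of measured genes in brackets), 1 point per gene, with each list's median as a bar and the silent-gene level of 7.15 dashed. Ribosomal protein genes gather above 14, naive pluripotency genes around a median of 11.83, and the 33 Hox genes lie below the dashed line.

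Lineage regulators were mostly below the level. Of 15 primitive streak and mesoderm genes 1 was above, Eomes, a T-box factor of streak and trophoblast, at 8.08, 8.09 and 8.27. Mesp1 (5.94, 5.97 and 5.95), Gsc (3.75, 3.90 and 3.79) and Wnt3 (3.43, 3.03 and 3.22) were not. Of 24 neural genes 8 were above, none in the top decile. Olig1, a basic helix-loop-helix gene of oligodendrocyte precursors, was the highest with 9.10, 8.89 and 9.81, and the intermediate filament gene Nes of neural progenitors read 8.73, 8.72 and 8.45. The neural plate genes Sox1 (5.57, 4.93 and 6.59) and Pax6 (7.27, 6.72 and 6.23) had means below the level and wide ranges, of 1.65 and 1.04. Gbx2, which LIF induces in ES cells and which also patterns the hindbrain, read 8.99, 8.01 and 7.97, so that array A stood above the other two.

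The share of genes above the level was 52.9% for the primitive endoderm list and 43.8% for the trophoblast list. Over all genes it was 51.8%, so these 2 counts do not set the lists far apart from genes in general. Of 17 primitive endoderm genes 9 were above the level, and 8 from A and B alone. Those in the top decile, Apoe (11.78, 12.03 and 12.07) and Sparc (11.21, 11.30 and 11.15), together with the basement membrane genes Lamb1 and Col4a1, encode secreted proteins that many cell types make. The regulators of the lineage, Gata6 (6.48, 6.51 and 6.11), Gata4 (6.28, 6.29 and 6.25), Sox17 (6.33, 6.74 and 6.43) and Foxa2 (5.96, 6.09 and 5.81), were not above the level on any array. Sox7 differed between arrays, with 5.97 in C against 8.26 and 8.50 in A and B. Of 16 trophoblast genes 7 were above the level, led by the simple keratin gene Krt8 (10.17, 10.26 and 9.79) and Tfap2c (10.01, 10.09 and 10.07), whereas the trophectoderm regulators Cdx2 (6.54, 6.34 and 6.22) and Elf5 (4.11, 3.86 and 4.18) were not. Of the 11 measured genes of the two-cell-like state 4 were above, Trim28, Kdm1a, Eif1a and Zfp809. Trim28, Kdm1a and Zfp809 are known as repressors of that state or of retroviral elements. Of the genes that define it, Zfp352 read 5.59, 5.48 and 5.63, and Tcstv3 3.16, 2.96 and 2.92.

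Germ line genes were above the level in 14 of 19 cases, with a median of 8.47. Tex19.1 read 11.04, 11.20 and 10.42, and Kit, the receptor of stem cell factor, 10.01, 9.99 and 10.27. Stra8, whose name records that RA induces it and which starts meiosis in germ cells, already read 9.72, 8.82 and 10.04 without RA, with array B the lowest and a range of 1.22. The synaptonemal complex gene Sycp3 read 8.98, 9.43 and 9.42, while its partner Sycp1 read 5.93, 5.74 and 5.92.

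The LIF pathway was above the level in 16 of 20 genes. The receptor genes Lifr (10.09, 10.23 and 9.78) and Il6st, which encodes gp130 (10.19, 10.20 and 9.93), and the transcription factor gene Stat3 (10.63, 10.64 and 10.32) were similar on A and B and lower by 0.27 to 0.45 in C than in B. Socs3, the feedback inhibitor that Stat3 induces, read 11.81, 11.88 and 11.32. Lif itself, a gene outside the rule for named genes and chosen after its values were seen, read 7.66, 7.80 and 7.17. Osmr, the oncostatin M receptor gene, was not above the level and was lower in C, with 4.74 against 5.71 and 6.01 in A and B.

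The FGF and ERK list had 20 of 26 genes above the level. The ligand gene Fgf4 read 11.86, 11.89 and 11.95, a range of 0.09. Fgf1 (5.12, 4.31 and 5.86), Fgf2 (3.34, 3.38 and 3.40) and Fgf10 (5.13, 5.39 and 5.28) were not above the level. Over the list, the median difference of C from the mean of A and B was -0.13, against 0.05 over all genes. C was at least 2-fold below that mean for 4 of the 26 genes, against 0.665% of all genes. It was at least 2-fold above it for 1 of the 26, against 0.368%. C was the lowest array for 14 of the 26 and the highest for 9, against 30.5% and 47.5% of all genes. Spry4, a Sprouty inhibitor, read 9.32 in C against 11.16 and 10.98 in A and B. The ERK phosphatase gene Dusp4 read 8.27 in C against 9.76 and 9.82, and Dusp6 10.39 in C against 11.48 and 11.35. Spry2 read 10.63 in C against 11.26 and 11.20. Etv5 (11.34, 11.45 and 11.20) and Spred2 (11.13, 11.16 and 11.01), which also answer to ERK, stayed within 0.25 log2 units over the 3 arrays.

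Nodal and BMP signalling was above the level in 25 of 27 genes. Nodal read 10.73, 10.84 and 10.33, and its inhibitors Lefty1 12.94 in C against 12.08 and 11.99 in A and B, and Lefty2 10.53 in C against 10.15 and 10.17. Smad4, the shared partner of the receptor Smads, read 11.76, 11.79 and 11.93. The BMP targets Id1 and Id3 differed the other way: Id1 read 8.99 in C against 10.40 and 10.49, and Id3 8.20 in C against 10.02 and 10.18. Smad6, an inhibitor of BMP signalling whose mean was below the level, read 7.44 in C against 6.39 and 6.12. Bmp2 was not above the level (3.86, 3.98 and 3.61).

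Of the Wnt list 14 of 25 genes were above the level. Ctnnb1, encoding beta-catenin, read 13.55, 13.59 and 13.60, the receptor gene Fzd7 11.24, 11.37 and 11.41, and Tcf7l1, the repressor of beta-catenin targets in ES cells, 10.50, 10.45 and 10.06. Ligand genes Wnt3 and Wnt5a (5.42, 5.69 and 4.64) and the intestinal stem cell receptor gene Lgr5 (4.71, 4.78 and 4.65) were not above it. Of the Notch list 14 of 18 genes were above, led by the DNA-binding effector Rbpj at 11.37, 11.31 and 11.38. Lfng, a glycosyltransferase that modifies Notch, read 6.98 in C against 8.07 and 8.09 in A and B, and the ligand gene Jag1 8.77 in C against 9.48 and 9.67.

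Most RA receptor and coregulator genes were above the level before RA was given, and most genes that make, bind or remove RA were not. Of 18 receptors and coregulators 14 were above it, with a median of 9.26. Rarg, the gamma receptor gene, read 9.83, 9.41 and 9.53, and Rara 8.50, 8.21 and 8.26. Rarb, the beta receptor gene and a classical RA target, was not above the level at 5.10, 4.75 and 5.55. The partner gene Rxrb read 10.00, 9.97 and 10.00 and Rxrg 6.22, 6.07 and 6.08. The acetyltransferase coactivators Ep300 (11.11, 11.08 and 10.87) and Crebbp (10.93, 10.83 and 10.30) headed the list. The orphan receptor genes Nr2f1 (2.81, 3.63 and 2.99) and Nr2f2 (5.67, 5.73 and 5.28) were not above the level.

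Of 19 genes of RA synthesis, binding and degradation 6 were above the level. Adh5, an alcohol dehydrogenase with broad use in formaldehyde metabolism, read 13.32, 13.33 and 13.40, and the lipid carrier gene Fabp5, which can deliver RA to nuclear receptors, 11.99, 12.03 and 12.17. The cellular RA-binding proteins Crabp1 (9.54, 9.61 and 9.61) and Crabp2 (7.68, 7.88 and 7.76) and the retinol dehydrogenases Rdh10 (8.78, 8.73 and 8.36) and Rdh11 (8.31, 8.62 and 8.72) made up the 6. Cyp26a1, the RA-degrading cytochrome that RA itself induces, was not above the level at 5.64, 5.85 and 5.94. Aldh1a1, a retinaldehyde dehydrogenase, read 2.91, 2.93 and 2.88, and Lrat, which stores retinol as esters, 2.94, 2.85 and 2.88. Dhrs3, a retinaldehyde reductase, had a mean of 6.47 and a range of 1.57, with array C above the level at 7.19 and A and B below it at 6.59 and 5.63.

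None of the 33 measured Hox genes had a value above the silent-gene level on any array, against the 51.8% of all genes whose mean was above it. Their median was 5.35. Hoxc9 came closest with 7.12, 6.87 and 7.01, and Hoxd10 was lowest with 2.90, 2.66 and 2.62. The genes of the Hoxb cluster covered most of this range: Hoxb4 read 6.46, 6.36 and 6.41, Hoxb3 6.47, 5.84 and 6.45, and Hoxb1 the values given with its promoter. Hoxb2 differed between A and B, with 6.33 in A, 5.28 in B and 6.05 in C, and was 1 of the 4 genes at least 2-fold apart in that pair. The count of 0 rests on the level: with lower levels, set at the 95th percentile of olfactory receptor genes or at the median of all probe sets, 12 and 8 Hox genes were above. Of their 13 cofactor and Cdx genes 5 were above the level, Tgif1, Tgif2, Pbx2, Pknox1 and Pbx3, and Meis1 (5.08, 4.43 and 4.99), Meis2 (5.33, 5.42 and 5.27) and Cdx4 (2.81, 2.41 and 2.56) were not.

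Most genes of the Polycomb complexes, which mark and compact silent developmental genes, were above the level. Of 29 Polycomb genes 26 were above the level and 10 in the top decile. Ezh2, the histone methyltransferase of Polycomb complex PRC2, read 12.32, 12.26 and 12.43, its partner Eed 12.38, 12.41 and 12.16, and the recruitment factors Jarid2 12.88, 12.75 and 12.47 and Mtf2 12.54, 12.72 and 12.12. Of PRC1, the ubiquitin ligase gene Rnf2 read 12.35, 12.35 and 12.20 and Phc1 12.65, 12.65 and 12.78. Ezh1, the other PRC2 methyltransferase, read 9.17 in C against 8.38 and 8.51, and Cbx8, a PRC1 reader gene, was not above the level (5.69, 5.57 and 5.79). Of 16 genes of DNA methylation and its removal 15 were above, with Uhrf1 (11.82, 11.87 and 11.97), which brings Dnmt1 to replicated DNA, Tet1 (11.64, 11.80 and 11.52), which oxidises methylcytosine, and Dnmt3l (10.35, 10.63 and 10.13), the inactive cofactor of the de novo enzymes. Tet3 was the exception at 5.06, 4.96 and 5.04. Of 30 chromatin remodelling genes 29 were above, among them Smarca4, the ATPase of the ES cell BAF complex (11.49, 11.44 and 11.56), while the alternative ATPase gene Smarca2 read 5.42, 5.17 and 5.35.

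Most cell cycle genes were above the level. Of 35 replication genes 34 were above the level, from Pcna, the sliding clamp, at 14.15, 14.16 and 14.06. The exception was Tyms, thymidylate synthase, at 5.48, 5.37 and 5.19. All 32 mitosis genes were above, led by the securin gene Pttg1 (13.26, 13.27 and 13.40) and Top2a (13.03, 13.14 and 13.30). The median SDs over the arrays were 0.0756 for replication genes and 0.0966 for mitosis genes, against 0.121 for all genes. These lists had median percentiles by signal of 90.9 and 94.1. In the brightest of 5 equal groups of all genes by signal the median SD was 0.0903, so mitosis genes were no steadier than bright genes in general. Of 27 G1 genes 23 were above, and their median SD was 0.155. Ccna2 read 12.26, 12.17 and 12.22 and Ccnd1 10.91, 10.88 and 10.63. The kinase inhibitor gene Cdkn1a read 11.13, 11.43 and 11.00, and Cdkn1b 9.50 in C against 8.50 and 8.63 in A and B, while its dimmer probe set gave a difference of C from the mean of A and B of 0.04. In the Myc network, Mycn read 12.54, 12.72 and 12.11, and Myc 7.37 in C against 9.67 and 9.37 in A and B. Mnt, a repressor of the network, read 9.87 in C against 10.93 and 11.01.

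Of 27 genes of ES cell adhesion 22 were above the level. The epithelial genes Ctnna1 (13.14, 13.16 and 13.16), Epcam (12.56, 12.63 and 12.61) and Cdh1, encoding E-cadherin (12.40, 12.58 and 12.44), were high, and the 5 not above the level were Cdh2 (6.88, 6.58 and 6.17), Twist1, Snai1, Zeb2 and Snai2, which mark mesenchymal cells. Zeb1, of the same kind but above the level, read 8.10, 7.99 and 8.03 and was chosen after its values were seen. Stress lists were also mostly above: 17 of 18 heat shock genes, 26 of 28 genes of the ATF4 and endoplasmic reticulum responses, and 18 of 20 p53 genes. Hspa8, the constitutive heat shock protein gene, read 14.54, 14.57 and 14.42. The 1 heat shock gene not above the level was the inducible Hspa1a, at 6.58, 6.73 and 6.72. All other members, inducible ones included, were above it. The cystine transporter gene Slc7a11 read 3.77, 3.72 and 3.67. Cholesterol and fatty acid synthesis was above the level in 23 of 23 genes, with Scd2 at 12.56, 12.40 and 12.66 and Mvk at 8.10, 7.83 and 8.07.

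Other lists describe the line. Of 26 imprinted genes 16 were above the level, with Gnas (12.08, 12.25 and 12.24), Grb10 (11.99, 11.82 and 12.02) and the maternally expressed noncoding RNA Meg3 (11.31, 11.50 and 11.16) the brightest. Of the genes on chromosome X 47.2% of 618 were above the level, against 52.0% of 17517 autosomal genes, and 1 of 9 measured genes of chromosome Y was above. That gene was Eif2s3y, a translation factor gene, at 7.21, 7.29 and 7.26. The other Y genes of the list, among them Uty (4.83, 4.96 and 4.90), Usp9y (4.53, 4.56 and 4.67) and Kdm5d (4.15, 3.99 and 3.85), were not. Xist, the RNA that silences an X chromosome in female cells, read 8.52, 8.61 and 7.72, lower in C. The Y genes Ddx3y and Zfy1 had no probe set of their own. Most feeder fibroblast markers were also above the level and lower in C. Which cells gave the Xist signal was not tested, so these values do not give the sex of the line.

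Feeder fibroblast markers were above the level in 33 of 45 measured genes, after replating on gelatin. Their median was 8.33, and 6 lay in the top decile, Fn1, Lgals1, Ccn2, Vim, S100a6 and Ccn1. Fn1, encoding fibronectin, read 12.84, 13.02 and 13.03 and Vim, encoding vimentin, 11.45, 11.51 and 11.02. Such genes are used by ES cells too. Of other markers, Col1a1 read 8.35, 8.51 and 7.98, Thy1 8.79, 9.24 and 8.46, Dcn 6.97, 8.39 and 5.83, Lum 4.76, 5.68 and 4.62, and Fap 4.52, 4.82 and 3.84. Of 22 markers of other cell types 5 (22.7%, against 51.8% of all genes) were above the level, Des, Cd68, Pecam1, Lyz2 and Epor. Blood and vessel markers thus stood on both sides of the level, since Cd68, Pecam1, Lyz2 and Epor are of this kind. Pecam1 also stands in the naive pluripotency list and is 1 of the 30 genes above the level there. Its signal therefore does not mark vessel cells here. Ptprc (3.76, 3.70 and 3.54), Itgam (3.74, 3.24 and 3.27) and Emcn (3.19, 3.37 and 3.42) were not above it.

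The feeder list separated all 3 arrays. Array C was the lowest for 37 of 45 markers, where it was below both A and B for 30.5% of all genes. The median difference of C from the mean of A and B was -0.57, against 0.05 over all genes. Array B was also above A, by a median of 0.31. Summed over the 45 markers on the linear scale, signal was 31850 in C, 39220 in A and 44700 in B, while the 4 ES cell markers summed to 30860, 30940 and 32050 in the same order. Such sums weigh the brightest members most, among them Fn1, which was not lower in C. They give no ratio of feeder cells to ES cells. In 8 of the 45 markers C was at least 2-fold below the mean of A and B, a difference found for 0.665% of all genes. The collagen gene Col3a1 read 8.16 in C against 9.18 and 9.75, Timp3 7.02 in C against 8.17 and 8.76, and Dcn 5.83 in C against 6.97 and 8.39. Over the 41 markers that stand in no other list the median was also -0.57. In a bulk sample fewer fibroblasts, less RNA per fibroblast and less RNA of these genes in the ES cells cannot be told apart. Nor can they be told apart from a technical difference between the arrays. What part feeder RNA had in this or in the other differences of C was not tested.

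The overall spread was small and not even over the ranking. The median SD over the 3 arrays was 0.12, 0.12, 0.15, 0.13 and 0.09 log2 units in 5 equal groups of genes by rising signal. A range of at least 2-fold was found for 250 genes (1.37%), 145 of them above the level. Array C was the lowest of the 3 for 152 of the 250, the highest for 97 and in between for 1. Without C, the count falls to the 4 genes that differ between B and A: Dcn, Mgp, Dpt and Hoxb2. Array B was higher for Dcn, Mgp and Dpt (chosen after its values were seen), which encode matrix proteins of connective tissue.

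Among genes above the level, the 20 with the widest range were led by Nppb, which encodes a natriuretic peptide, with 6.55 in C against 9.16 and 9.56 in A and B. Fgfbp1, a carrier protein that releases FGFs from matrix, read 7.40 in C against 10.05 and 10.40, and Nab2, a corepressor of Egr1 that Egr1 itself induces, 7.65 in C against 10.41 and 10.47. These are gaps of over 2.6 log2 units between C and either other array. Plaur, the urokinase receptor gene, read 7.79 in C against 9.73 and 10.27, Ptgs2, encoding the inducible cyclooxygenase, 7.72 in C against 9.90 and 10.12, and Phlda1 8.50 in C against 10.39 and 10.74. Array C was the lowest in 19 of the 20 and A and B lay within 2-fold of each other in 19, the exception being Mgp. The 20 were drawn by their mean over the 3 arrays, which favours genes high in both A and B over genes high only in C. The 19 therefore do not measure the direction in which C differs. Among all 250 genes with a range of at least 2-fold, C was the lowest for 152 and the highest for 97. For Etfbkmt, a methyltransferase gene of mitochondria, C was the highest, with 8.47 against 6.48 and 6.61. Of the 20 genes 11 had 1 probe set, and for Cyp1b1, Sox7 and Fosl2 a dimmer probe set gave a difference of C from the mean of A and B of -0.17, -0.04 and -0.10 in place of -2.75, -2.40 and -1.94. Among genes given above for their difference in C, the same holds for Dcn, Nr5a2, Mnt and Ezh1, where another probe set gave 0.05, -0.05, -0.11 and 0.04, and for Osmr, where another gave 0.38. Only 5 of the 20 were members of a list: Sox7, Myc, Fosl2, Id3 and Spry4.

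**Figure D4:**
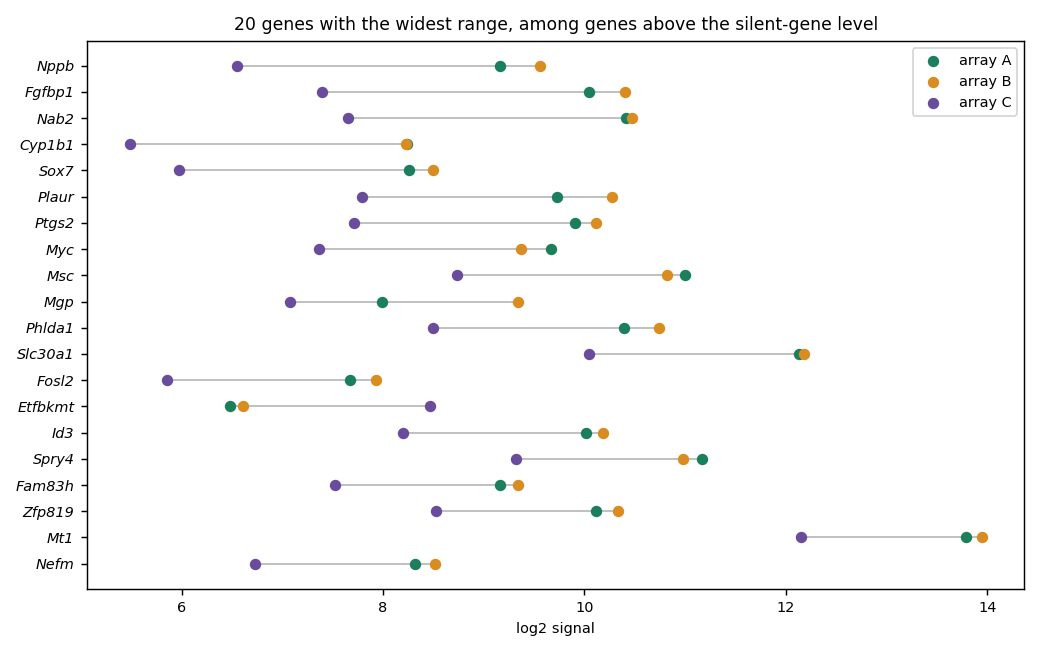
Log2 signal (horizontal axis) in arrays A, B and C of the 20 genes with the widest range among genes above the silent-gene level (rows), 1 point per array. In 19 rows the point of array C lies left of the points of A and B, and for Etfbkmt it lies to their right.

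Immediate early genes, which serum and ERK switch on quickly, were mostly above the level. Of 29 genes 26 were above the level. Egr1 (13.35, 13.56 and 13.33) and Fos (12.84, 13.05 and 13.26) were in the top decile, and Fos was highest in C. Other members were lower in C: the Fos-related genes Fosl1 read 6.08 in C against 7.18 and 8.05 and Fosl2 5.86 in C against 7.67 and 7.93, and Maff read 8.70 in C against 9.59 and 10.02. Over the list C was lowest for 17 genes and highest for 6. Over all genes it was lowest for 30.5% and highest for 47.5%. The median difference of C from the mean of A and B was -0.27 over the list, against 0.05 over all genes. In 5 of the 29 genes C was at least 2-fold below that mean, a difference found for 0.665% of all genes. The matrix protein genes Ccn1 and Ccn2 stand in both this list and the feeder list. Over the 20 immediate early genes in no other list the median was -0.30.

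Of the 20 genes with the widest range, Mt1 and Slc30a1 handle metals. Mt1, a metallothionein that binds zinc and copper, read 12.15 in C against 13.78 and 13.94 in A and B. Slc30a1, the zinc exporter of the plasma membrane, read 10.04 in C against 12.13 and 12.18. Mt2, Slc39a14 and Hmox1 belong to no list, were chosen after their values were seen, and support nothing about metal genes as a group. Mt2 read 12.40 in C against 13.81 and 13.85, the zinc importer gene Slc39a14 9.74 in C against 11.35 and 11.52, and the haem oxygenase gene Hmox1 9.71 in C against 11.05 and 11.28. In each of the 5 genes A and B lay within 0.23 log2 units of each other. Probe sets disagreed in size for Mt1, whose dimmer probe set gave a difference of C from the mean of A and B of -0.47 in place of -1.71, and for Slc39a14, whose probe sets ranged from -1.69 to -0.50. Those of Slc30a1 gave -1.95 and -2.11.

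The transcription factor Mtf1 is known to bind metal response elements in metallothionein promoters. The core of that element was sought as TGCACNC or TGCGCNC on both strands, counted apart from CG and TATAAA, in the RefSeq promoters of build GRCm38.p6. It was in 25.7% of all 32851 promoters and in 32.6% of those of the 11792 measured genes with 1 promoter. In the same 5 groups of these genes by rising signal it was in 22.5%, 27.1%, 35.2%, 39.8% and 38.6%. Mt1 at chr8:94178839-94179138 holds 3 matches, Mt2 at chr8:94172368-94172667 holds 4, and Slc30a1 at chr1:191906531-191906830 holds 2, all on the plus strand of the genome as printed, with matches in either direction in capitals. They are shown as known mouse targets of Mtf1, and a match is a description of letters, not a bound site.
Mt1: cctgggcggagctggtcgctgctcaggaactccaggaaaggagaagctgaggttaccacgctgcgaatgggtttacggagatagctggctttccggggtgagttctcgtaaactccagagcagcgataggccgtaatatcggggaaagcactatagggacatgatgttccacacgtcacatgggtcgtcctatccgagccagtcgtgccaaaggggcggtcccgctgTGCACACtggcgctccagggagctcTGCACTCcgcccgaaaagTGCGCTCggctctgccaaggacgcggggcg
Mt2: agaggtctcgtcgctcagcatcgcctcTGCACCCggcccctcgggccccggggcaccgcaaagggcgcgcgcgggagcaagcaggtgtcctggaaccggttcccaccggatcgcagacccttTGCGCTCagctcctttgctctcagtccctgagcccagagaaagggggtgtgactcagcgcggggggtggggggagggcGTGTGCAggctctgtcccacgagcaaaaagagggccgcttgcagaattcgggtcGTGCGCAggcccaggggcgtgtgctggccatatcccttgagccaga
Slc30a1: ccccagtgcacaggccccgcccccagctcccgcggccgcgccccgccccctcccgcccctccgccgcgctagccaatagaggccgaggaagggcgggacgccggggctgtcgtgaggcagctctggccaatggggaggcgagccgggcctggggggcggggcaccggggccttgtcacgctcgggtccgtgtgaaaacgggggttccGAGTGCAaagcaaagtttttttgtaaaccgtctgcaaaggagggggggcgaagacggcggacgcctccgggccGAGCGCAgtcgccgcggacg

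Genes higher in C were fewer at 2-fold: C was at least 2-fold above the mean of A and B for 67 genes (0.368%), and at least 2-fold above both A and B for 44, of which 17 were above the level. In the opposite direction C was at least 2-fold below both for 97 genes, 74 of them above the level. The level was applied to the mean over all arrays, which favours genes high in both A and B over genes high only in C. The 17 and the 74 therefore do not measure the direction in which C differs. The 44 and the 97 were counted without the level. Hypoxia and glycolysis genes differed together but by small steps. Of its 32 genes C was the highest for 28 and the lowest for none, with a median difference from the mean of A and B of 0.18. Over all genes, C was the highest for 47.5% and the median difference was 0.05. Gapdh read 14.71 in C against 14.64 and 14.67, the glucose transporter gene Slc2a1 13.52 in C against 13.35 and 13.30, Vegfa 8.22 in C against 7.29 and 7.50, and Ankrd37, a target of the hypoxia-inducible factors, 9.34 in C against 8.18 and 8.54. Ddit4, an inhibitor of mTORC1, read 11.90 in C against 10.41 and 10.75, and Bmf, a BH3-only apoptosis gene, 8.53 in C against 7.45 and 7.38, although another Bmf probe set gave a difference of C from the mean of A and B of -0.11. The cyclin G2 gene Ccng2, chosen after its values were seen, read 9.71 in C against 8.03 and 8.21. In the apoptosis list C was the highest for 17 of 22 genes, against the same 47.5%, with a median of 0.15.

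**Figure D5:**
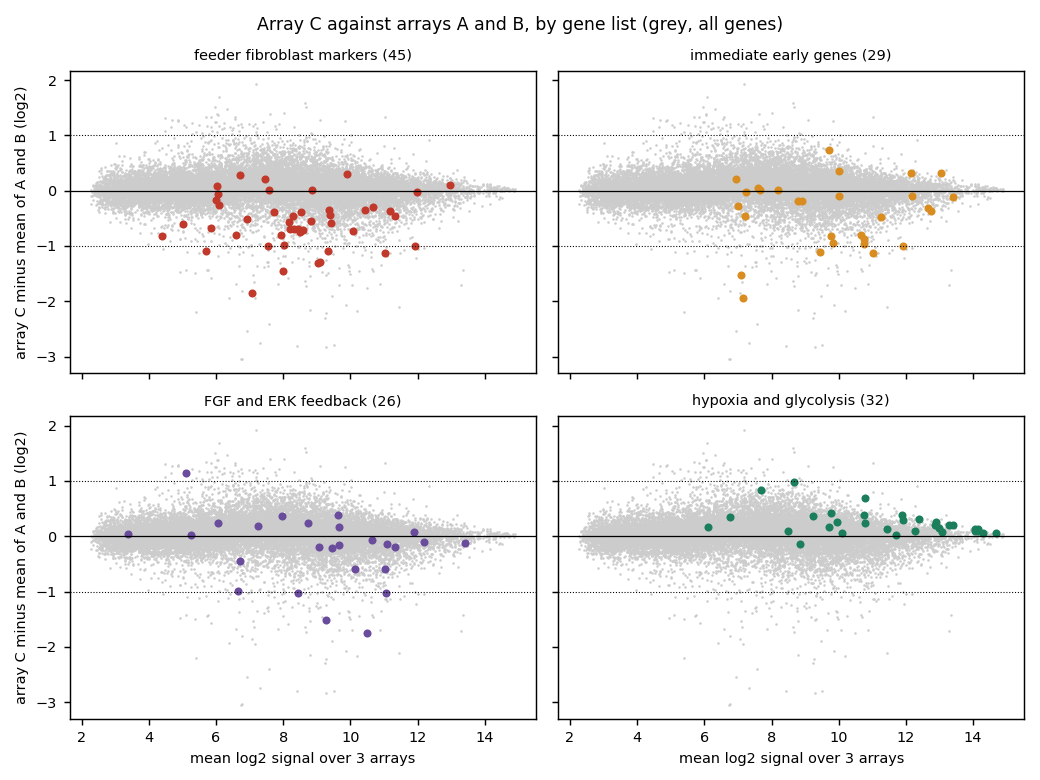
Difference of array C from the mean of arrays A and B (vertical axes, log2) against mean log2 signal over the 3 arrays (horizontal axes), with all 18194 genes in grey and 1 list in colour per panel; dotted lines mark 2-fold. Feeder markers lie mostly below 0 (median -0.57), immediate early genes spread down to -1.94, 4 FGF and ERK genes lie at or below the lower dotted line, and hypoxia and glycolysis genes lie mostly above 0 (median 0.18).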

How the data were processed

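RNA of untreated KH2 cells was measured on 3 arrays. Per the file headers, the authors deposited 45101 probe sets as log2 signal; the submitters' processing notes name limma 3.4.3, and the method of normalization is not given in the sources used here. No further normalization was applied. Probe sets of 1 gene (34958) were kept, 34754 of them matched by identifier to a mouse gene table; 932 of several genes and 9211 of none were left out. Each of the 18194 genes is represented by its probe set with the highest mean over the 3 arrays, and 9012 genes had more than 1. Counts, medians, SDs and ranges were computed in Python 3.11.15 with pandas 2.3.3 and numpy 2.4.6, and tested on simulated data. With 1 group, no test was possible, and 3 arrays limit the precision of every value.

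The 45 lists hold 1100 distinct measured genes; 15 names were matched by a synonym, and 117 names had no probe set of their own and were not analysed here. Members, lists and the choice of arrays were made with earlier results of these data known. Named are the 4 markers, the 20 brightest genes, the 20 with the widest range among genes above the silent-gene level, in each list up to 8 of the brightest, 4 of the dimmest and 3 of the widest range, and a set of RA, pluripotency, Hox, signalling and feeder genes. Any other gene named was picked with its values in view, as the text says there. Alternatives were quantile normalization, median centring, other choices of probe set, other levels, and leaving out each array. Promoters are from RefSeq.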

Additional observations from a re-analysis of the deposited data

How the results depend on the processing

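No paired analysis was possible because the values are of 1 group, and no result comes from a test. The 4 markers were above the silent-gene level under all 13 alternatives, and 27 to 30 genes of the naive list were above it. The 27 was counted without probe sets that may cross-hybridize. Genes with no other probe set drop out of that alternative, so its counts are over fewer genes. Genes above the level numbered 6927 with the level at the 99th percentile of silent genes (8.43) and 12437 with that of olfactory receptor genes (5.76), and 7834 without probe sets that may cross-hybridize; leaving out an array gave 8822 (without C) to 9458. Feeder markers above the level numbered 22 to 42 over these levels. Of the Hox genes 1 was above when a gene's probe sets were averaged and 1 with the level at the 90th percentile of silent genes (6.70), 12 with the olfactory receptor level and 8 with the median of all probe sets (6.06); in the other 9 alternatives the count was 0. Genes with a range of at least 2-fold numbered 145 when only genes above the level were counted, and 4 to 210 when an array was left out, 4 of them without C and 180 without B. The feeder median difference of C was -0.78 without A, -0.42 without B and -0.38 with the mean of probe sets, and cannot be had without C. Quantile normalization and median centring moved it to -0.58 each, and moved the median of all genes from 0.05 to 0.05 and 0.03. How far a probe set stands above the silent-gene level limits each value.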

Other observations

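Some genes at least 2-fold higher in array C than in both A and B stood in none of the lists and are named after their values were seen. Clk2, a kinase of splicing factors, read 9.95 in C against 8.73 and 8.63 in A and B. Camk2n1, an inhibitor of the kinase CaMKII, read 8.94 in C against 7.46 and 7.63. Mymx, known for myoblast fusion in muscle, read 10.67 in C against 9.56 and 9.29. Pik3ip1, which dampens PI3-kinase signalling, read 7.96 in C against 6.71 and 6.80. Dimmer probe sets gave differences of C from the mean of A and B of 0.25 for Camk2n1 and 0.21 for Pik3ip1.

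The octamer ATGCAAAT was sought on both strands in promoters of 300 bases because Oct4 binds such letters. It was in 2.12%, 1.31%, 1.53%, 1.53% and 1.19% of promoters in 5 equal groups of genes by rising signal. The share was 1.53% over these 11792 genes together and 1.74% of all 32851 promoters. It was no more frequent at the upper end of the ranking than in either set. Of the 16 naive pluripotency genes with 1 promoter, 1 held it.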
